A study of Mus musculus with 6 samples.

Results

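The genes described here encode the classical guidance ligands of the nervous system and their receptors: semaphorins with plexins and neuropilins, ephrins with Eph receptors, Slits with Robo receptors, and netrins with Unc5 receptors. Members were the protein-coding genes of the deposited table whose symbols carry these family names. There were 65 such genes among 15388 in the table, 33 encoding ligands and 32 encoding receptors, and all 65 had enough reads to be tested. RNA was measured in hippocampus of mice with the genotype Cx3cr1-Cre/Ert2+; NuTRAP+, in which every animal had received tamoxifen as a young adult. The Cx3cr1 promoter drives an inducible Cre recombinase in microglia and in related brain macrophages, and Cre switches on the NuTRAP reporter, which puts an EGFP tag on ribosomes. In translating ribosome affinity purification (TRAP), the homogenate of 1 animal gave an Input library and a Positive library, the latter from RNA on ribosomes held by anti-GFP beads. Input was supernatant of the homogenate set aside before the beads, so it was not limited to RNA on ribosomes. There were 3 animals, numbered 201, 207 and 208, with 1 Input and 1 Positive library each. No library without Cre or without tamoxifen was analysed here, so background binding to the beads had no measurement of its own.

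Guidance ligands were named for steering growing axons, and the same families act in adult tissue on synapses, on vessel walls and on the shape and movement of immune cells. Semaphorins bind plexins, and the secreted class 3 semaphorins mostly do so through neuropilins as co-receptors. Ephrins are held on the cell surface, the A class by a lipid anchor and the B class by a membrane-spanning domain, so that contact between cells is needed for them to bind Eph receptor kinases. Slits and netrins are secreted, and Robo and Unc5 receptors are best known for repelling axons from them.

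Libraries held between 14879734 and 17757918 reads in genes, and the guidance genes took 0.38% to 0.393% of them in every library. Values are given as scaled reads, in which the reads of a library were divided by its size factor, and a gene was called where the edgeR quasi-likelihood test gave a Benjamini-Hochberg adjusted p under 0.05 over all 15343 genes tested. The labelled target cell was present in the Positive fraction: all 8 microglial markers rose, with a median log2 fold change of 4.63, and their summed level went from between 4393 and 4770 scaled reads in Input to between 86823 and 128003 in Positive. All 4 markers of border macrophages rose too, with a median log2 fold change of 4.17. Of these, Pf4 and Lyve1 did not exceed 20 scaled reads in every Input library and were tested only because of their Positive level. Markers of other cells also moved. All 5 endothelial markers rose, with a median of 2.00. All 5 oligodendrocyte markers fell with a median of -2.92, and all 3 of oligodendrocyte precursors with a median of -1.67. Of 6 neuronal markers, 1 rose, and the median was 0.10. None of the 5 mural cell markers was called, and 2 of 5 astrocyte markers fell. No marker in these lists was at 0 in Input or in Positive. Both fractions came from the same homogenate of each animal. These changes therefore compare RNA held by the beads with RNA of the supernatant, and do not measure numbers of cells or RNA per cell.

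The promoters of the 3 strongly raised and the 2 strongly lowered members that had an entry within 500 bases of the gene start in the table are shown here, because these genes are among the largest changes in each direction. Plxnb2 and Sema3b, also among them, had no such entry. Sequences are from RefSeq on GRCm38.p6 (mm10), run from 250 bases before to 50 bases after a RefSeq start, and are written 5′ to 3′ on the strand of the gene. Capitals mark the letters AGGAAG or, on the other strand, CTTCCT, a core that ETS family transcription factors can bind.

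Sema3g, chr14:31217623-31217922 (+ strand): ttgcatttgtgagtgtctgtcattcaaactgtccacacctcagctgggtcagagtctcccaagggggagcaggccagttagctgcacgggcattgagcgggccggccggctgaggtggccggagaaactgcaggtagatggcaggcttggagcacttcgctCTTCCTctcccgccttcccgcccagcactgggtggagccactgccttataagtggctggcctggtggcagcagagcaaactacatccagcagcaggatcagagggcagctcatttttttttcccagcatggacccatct

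Epha2, chr4:141300971-141301270 (+ strand): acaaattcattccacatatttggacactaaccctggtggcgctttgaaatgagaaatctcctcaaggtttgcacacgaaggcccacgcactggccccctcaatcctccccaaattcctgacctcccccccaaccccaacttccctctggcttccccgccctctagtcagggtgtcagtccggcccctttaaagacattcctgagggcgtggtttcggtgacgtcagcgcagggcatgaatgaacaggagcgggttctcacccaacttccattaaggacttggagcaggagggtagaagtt

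Robo4, chr9:37401722-37402021 (+ strand): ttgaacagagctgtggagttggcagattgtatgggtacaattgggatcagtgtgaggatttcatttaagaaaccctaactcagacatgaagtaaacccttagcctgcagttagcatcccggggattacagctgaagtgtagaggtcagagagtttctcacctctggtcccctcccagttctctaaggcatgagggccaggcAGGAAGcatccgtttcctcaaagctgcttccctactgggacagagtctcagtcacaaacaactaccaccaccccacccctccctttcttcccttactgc

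Unc5b, chr10:60831532-60831831 (- strand): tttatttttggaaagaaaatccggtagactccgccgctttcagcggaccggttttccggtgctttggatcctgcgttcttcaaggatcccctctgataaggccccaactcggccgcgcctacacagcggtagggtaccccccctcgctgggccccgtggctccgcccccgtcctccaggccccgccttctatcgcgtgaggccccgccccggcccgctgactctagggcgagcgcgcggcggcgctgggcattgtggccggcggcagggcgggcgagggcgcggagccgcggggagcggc

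Sema3d, chr5:12382916-12383215 (+ strand): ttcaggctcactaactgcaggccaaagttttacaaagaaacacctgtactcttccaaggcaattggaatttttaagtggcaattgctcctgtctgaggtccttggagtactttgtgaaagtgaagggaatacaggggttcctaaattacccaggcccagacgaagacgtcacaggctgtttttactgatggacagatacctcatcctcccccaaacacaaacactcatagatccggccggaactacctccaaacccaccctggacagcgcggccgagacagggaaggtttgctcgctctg

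Of the 65 members, 50 had such a promoter entry. AGGAAG was found on either strand in 19 of these 50 promoters, or 38.0%, against 33.0% of 9680 promoters of table genes. It was present in 6 of 10 promoters of members that were higher in Positive and in 1 of 10 of members that were lower. The promoters of all higher and all lower genes were not counted apart, so this contrast of few promoters has no background and was not tested. The longer letters GAGGAAGT, which contain AGGAAG and are bound by PU.1 in macrophages, were in 0 of the 50 and in 3.0% of all promoters. GGGCGG, the core of GC boxes, was in 74.0% of member promoters against 65.2%, and TATAAA was in 4.0% against 6.9%. These are counts of letters in short windows and say nothing of binding.

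Most guidance genes were close to their Input level in the Positive fraction, and a small number of them were far from it. In Positive, 13 members were higher and 15 were lower than in Input, which is 20% and 23.1% of the 65, against 24.0% and 22.0% of all genes tested. Either way 43.1% of members were called, and 46.0% of all genes were. The median log2 fold change of the members was -0.11, and that of all genes was -0.01. With reads scaled by the total count of a library in place of the median ratio, 12 members were higher and 21 lower, and the share of all calls that were higher went from 52.2% to 41.6%, as the median of all genes moved to -0.09. A log2 fold change under 0.5 in size was seen in 52 members, or 80%, against 68.3% of all genes. At least 2-fold changes that passed the test were seen in 5 members upward, or 7.7% against 8.29% of all genes, and in 3 downward, or 4.6% against 4.47%. All 3 Positive libraries lay above all 3 Input libraries in 15 members and below them in 19, which is 23.1% and 29.2% against 28.9% and 27.6% of all genes. The shares of members called or not overlapping were near those of the whole table. Every one of the 13 higher members was higher in 3 of 3 animals, and every one of the 15 lower members was lower in 3 of 3. The calls were made on these same libraries, so this agreement was largely set by the selection and is no separate support. Of the 37 members that were not called, 29 had a 95% interval lying wholly within 1.5-fold of no change.

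**Figure D1:**
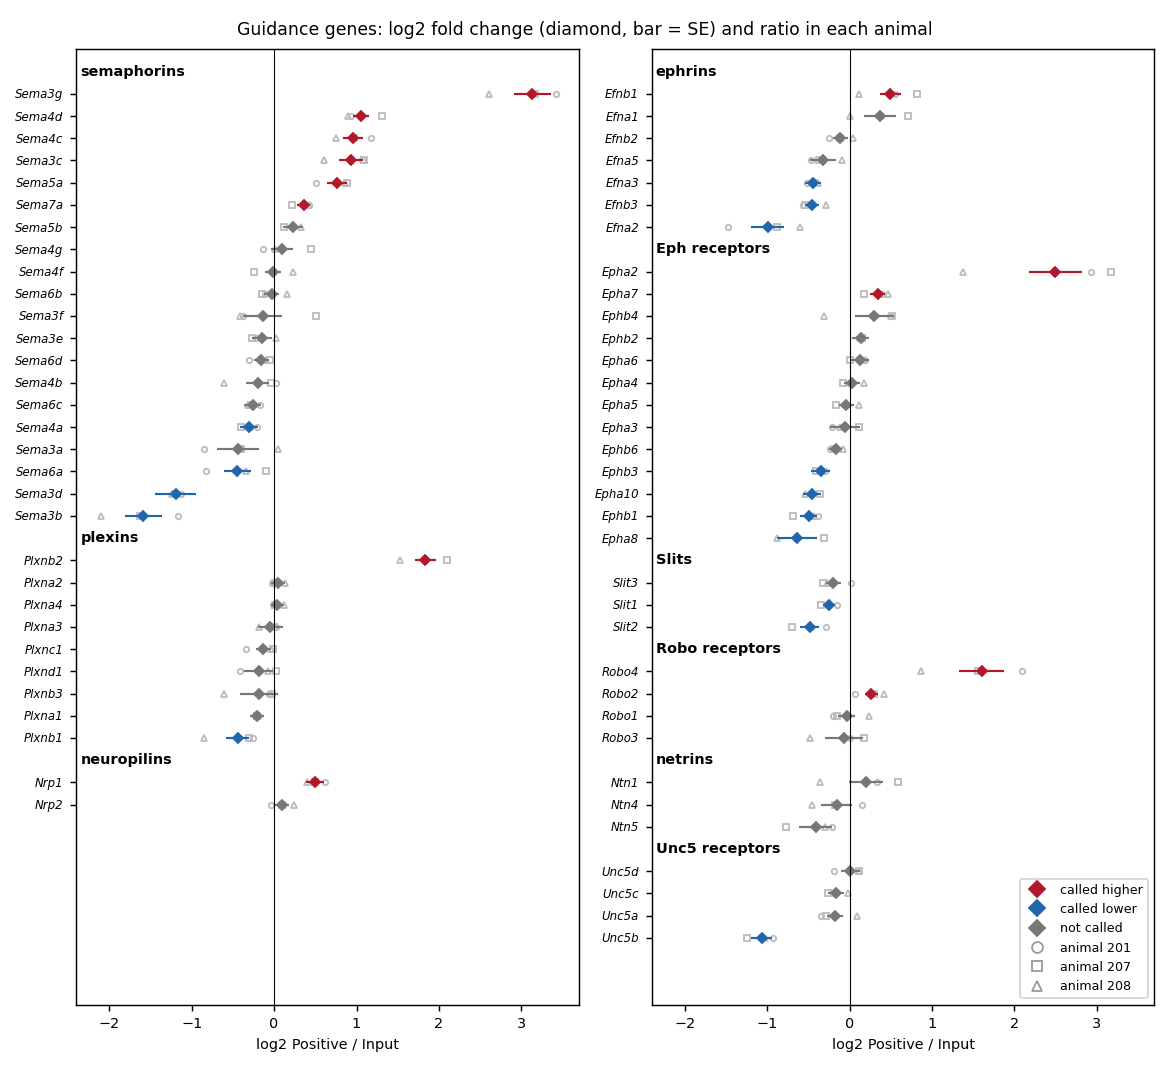
Log2 fold change of Positive over Input for the 65 guidance genes, by family and sorted within it. Diamonds are fitted values with their standard error (SE) as bars, red for called higher, blue for called lower and grey for not called, and open symbols are the log2 ratio in each of the 3 animals with a pseudocount of 1. Sema3g, Epha2, Plxnb2 and Robo4 lie far to the right of the others, and Sema3b, Sema3d and Unc5b are the lowest.

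Secreted class 3 semaphorins held both the highest and the lowest of all members. Sema3g, a class 3 semaphorin known from endothelial cells, had 55.3, 47.9 and 52.4 scaled reads in the Input libraries of animals 201, 207 and 208 and 601, 439 and 325 in the Positive ones. The groups did not overlap, and animal 208 was the lowest in Positive. Sema3g rose 8.78-fold (log2 fold change 3.13, SE 0.22, adjusted p 1.4e-07). Sema3c, another secreted semaphorin with a known part in heart and vessel development, had 243, 199 and 233 scaled reads in Input and 510, 426 and 354 in Positive. It rose 1.91-fold (log2 0.94, SE 0.15, adjusted p 0.00023), again with no overlap and with animal 208 the lowest in Positive.

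At the other end, Sema3b had 267, 216 and 254 scaled reads in Input against 118, 69.3 and 58.3 in Positive. Sema3b was left at 33.3% of its Input level (log2 -1.59, SE 0.23, adjusted p 0.00010), and the groups did not overlap. Sema3d had 122, 115 and 80.1 scaled reads in Input and 55.6, 49.0 and 33.2 in Positive, with animal 208 the lowest in both fractions. It fell to 43.7% of Input (log2 -1.19, SE 0.25, adjusted p 0.0019). The other 3 class 3 members were not called. Sema3a, the prototype repellent that acts through Nrp1, had the lowest level per kb of the ligands in Input, 4.36 scaled reads, and gave a log2 fold change of -0.44 (SE 0.25, adjusted p 0.18). Sema3e, the ligand of Plxnd1, gave -0.15 (adjusted p 0.33), and Sema3f, the ligand of Nrp2 and Plxna3, gave -0.14 (adjusted p 0.67). Class 3 therefore had 2 members higher and 2 lower of 7, too few to set against the 24.0% of all genes that rose and the 22.0% that fell.

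Class 4 semaphorins span the membrane and are known from immune cells as well as from brain. Sema4d, a ligand of plexins B that is made by lymphocytes and by oligodendrocytes, had 719, 666 and 722 scaled reads in Input and 1373, 1650 and 1350 in Positive. It rose 2.08-fold (log2 1.05, SE 0.10, adjusted p 1.6e-06). Sema4d is in the oligodendrocyte list from cell sorting, of which 137 of 186 tested genes fell, so its direction was opposite to that of most genes of its list. Sema4c, a ligand of Plxnb2, had 209, 224 and 253 scaled reads in Input and 473, 438 and 425 in Positive, and it rose 1.95-fold (log2 0.96, SE 0.12, adjusted p 3.3e-05). Neither gene overlapped between fractions. Sema4a, which acts on T cells, was the lowest of the class, with 638, 596 and 555 scaled reads in Input and 551, 450 and 452 in Positive (log2 -0.30, SE 0.11, adjusted p 0.040). Its call was lost in 6 of 14 alternatives, at adjusted p 0.053 to 0.13. The remaining 3 gave 0.10 for Sema4g, -0.01 for Sema4f and -0.20 for Sema4b, and none of these was called.

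**Figure D2:**
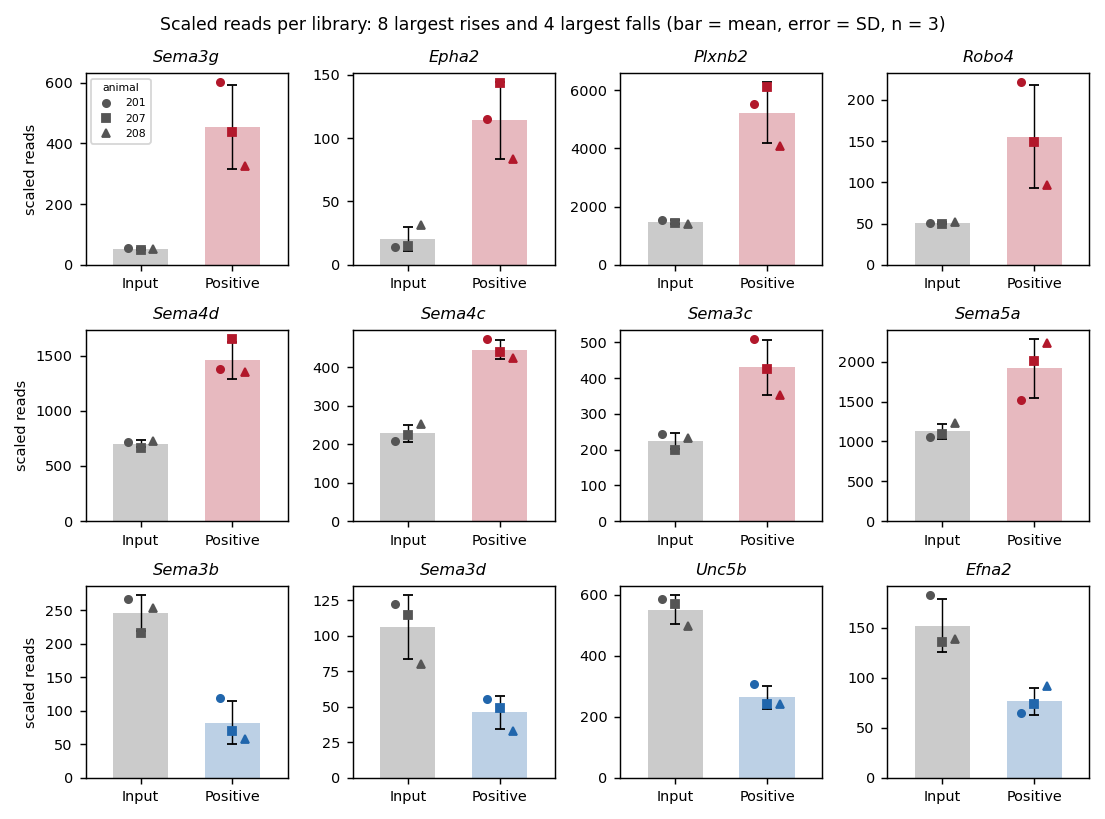
Scaled reads in each library for the 8 members with the largest rise and the 4 with the largest fall, with bars at the mean of 3 libraries, error bars of 1 SD and a symbol per animal. Axes are linear and start at 0. In all 12 genes the 3 Positive libraries lie wholly above or wholly below the 3 Input libraries. In every one of the 8 rises except Sema5a, the Positive library of animal 208 is the lowest of the 3.

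Class 5 to 7 semaphorins are bound to the membrane. Sema5a, a long semaphorin with thrombospondin repeats, had 1062, 1091 and 1235 scaled reads in Input and 1514, 2008 and 2233 in Positive. It rose 1.70-fold (log2 0.76, SE 0.12, adjusted p 0.00026). Unlike for Sema3g, animal 201 had the smallest ratio. Sema5b had 287, 266 and 275 in Input and 336, 288 and 345 in Positive, which did not overlap, and gave a log2 fold change of 0.23 (adjusted p 0.15). Sema7a, the lipid-anchored semaphorin that binds integrin beta 1 and Plxnc1, had 1969, 1987 and 2021 scaled reads in Input and 2649, 2307 and 2718 in Positive, a 1.28-fold rise (log2 0.36, SE 0.08, adjusted p 0.0029). Per length of exon it was the second most abundant member in Positive, at 776 scaled reads per kb against 604 in Input. In class 6, whose members serve both as ligands and as receptors, Sema6a was lower at -0.44 (SE 0.16, adjusted p 0.038), with 428, 267 and 321 scaled reads in Input and 242, 251 and 253 in Positive. Its fall was largest in animal 201, and without the Input library of that animal it was -0.24 (adjusted p 0.20), 1 of 5 alternatives in which the call was lost. Sema6b had 3433, 3146 and 3215 scaled reads in Input and 3190, 2845 and 3584 in Positive, which overlapped, and gave -0.03 (adjusted p 0.84). It was the member with the highest level per kb in Positive, 808 against 823 in Input. Sema6d gave -0.16 (adjusted p 0.17). Sema6c gave -0.26 (adjusted p 0.055), and with the animal as a block it was called lower at -0.26 (adjusted p 0.047).

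Among plexins, which are the receptors of semaphorins, 1 gene stood out. Plxnb2, the receptor of Sema4c and Sema4d, had 1551, 1428 and 1417 scaled reads in Input and 5510, 6103 and 4081 in Positive. It rose 3.57-fold (log2 1.84, SE 0.13, adjusted p 1.0e-07), and the lowest Positive library had more than the highest Input library. The gene lies at chr15:89155549-89171120 on mm10. Per kb of exon Plxnb2 went from 190 scaled reads in Input, the level ranked 13 of 65, to 678 in Positive, ranked 3. The other 8 plexins together had 10472 to 11138 scaled reads in Input and 9787 to 9951 in Positive, so the rise of the family total came from Plxnb2. Plxnb1, the closest relative and a high-affinity receptor of Sema4d, went the other way, from 2093, 1852 and 1941 scaled reads in Input to 1756, 1502 and 1076 in Positive (log2 -0.44, SE 0.14, adjusted p 0.019). The fall was steepest in animal 208 and was -0.27 (adjusted p 0.022) without that Positive library, and the call was lost without Input 201 (-0.39, adjusted p 0.076) and with limma (adjusted p 0.063). Plxnb3 gave -0.18 (adjusted p 0.54).

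The plexins of class A, C and D were not called. Plxna1, a receptor of class 6 and class 3 semaphorins, gave -0.21 (SE 0.08, adjusted p 0.050) with no overlap between the fractions, and it was called lower with the animal as a block (adjusted p 0.027). Plxna2 and Plxna4 gave 0.04 each, and under scaling by total count both were -0.04. Plxna3 gave -0.04, Plxnc1 gave -0.13 and Plxnd1 gave -0.18, with adjusted p from 0.26 to 0.84. Of the neuropilins, Nrp1, a co-receptor of Sema3a and of vascular endothelial growth factor, had 789, 1036 and 1038 scaled reads in Input and 1217, 1464 and 1367 in Positive, and it rose 1.41-fold (log2 0.50, SE 0.11, adjusted p 0.0029). Nrp2, a co-receptor of Sema3f, had 1326, 1411 and 1233 scaled reads in Input and 1294, 1508 and 1453 in Positive, with overlapping groups (log2 0.10, SE 0.09, adjusted p 0.37).

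**Figure D3:**
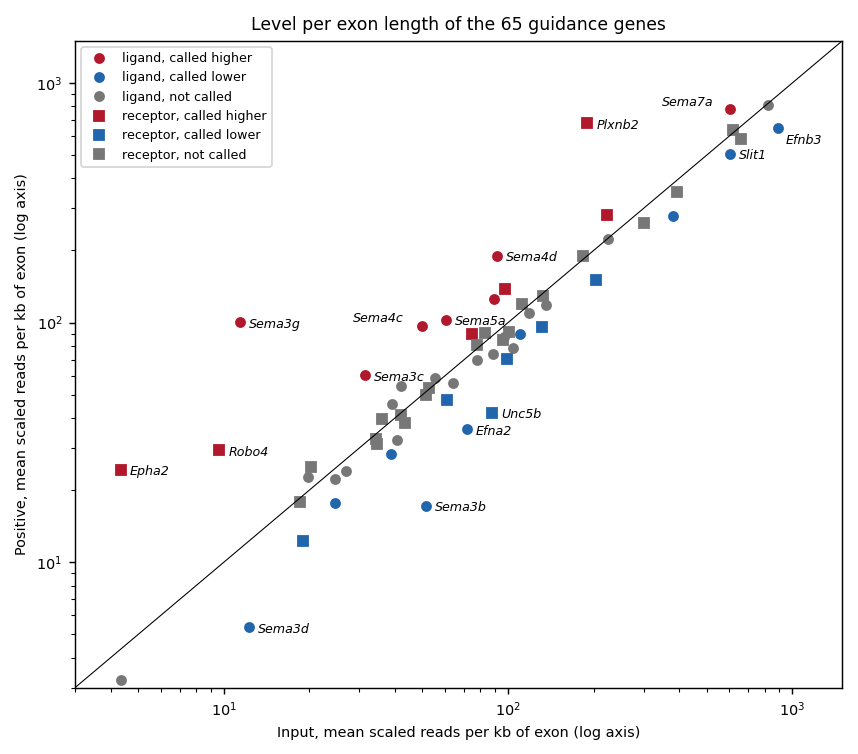
Mean scaled reads per kb of exon in Input and in Positive for the 65 members, on log axes, with circles for ligands, squares for receptors and the line of equal level. Most members lie near the line over more than 2 powers of 10, while Plxnb2 moves from 190 to 678 and Sema3g from 11.4 to 100.2 scaled reads per kb.

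Ligands and the receptors they are known to bind were then set side by side. Sema4d rose by 1.05 on the log2 scale, and of its receptors Plxnb2 rose by 1.84 and Plxnb1 fell by 0.44. Sema7a rose by 0.36, and its receptor Plxnc1 was at -0.13 and not called. Sema3a was at -0.44 and not called, and Nrp1 rose by 0.50. Sema6a fell by 0.44, while Plxna2 and Plxna4 were at 0.04. Sema3e and Plxnd1 were at -0.15 and -0.18, neither of them called, and Sema6d and Plxna1 were at -0.16 and -0.21, also not called. Sema3f was at -0.14, with Nrp2 at 0.10 and Plxna3 at -0.04, and none of the 3 was called.

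Of 7 ephrins, the surface ligands of Eph receptors, 3 fell and 1 rose, a family too small to set against the 22.0% of all genes that fell and the 24.0% that rose. The ephrins together took 8.56% to 9.13% of member reads in Input and 6.56% to 6.96% in Positive. Their sum was 5116.5 to 5471.1 scaled reads in Input and 4099.0 to 4504.3 in Positive. Efnb3 alone went from a mean of 2839 to 2067, a large part of this fall. Efna2 had 183, 136 and 139 scaled reads in Input against 64.9, 73.6 and 91.4 in Positive, a fall to 50.3% (log2 -0.99, SE 0.20, adjusted p 0.0014) with no overlap. Efna3 had 895, 876 and 997 in Input and 626, 650 and 762 in Positive (log2 -0.44, SE 0.10, adjusted p 0.0030), and it likewise did not overlap. Efna5, a repellent that shapes retinal and hippocampal maps, gave -0.32 (adjusted p 0.11). Efna1, an ephrin known from endothelium and a ligand of Epha2, gave 0.37 (adjusted p 0.14), with 76.7, 66.9 and 87.1 scaled reads in Input and 100.3, 110 and 87.2 in Positive, so that animal 208 showed almost no difference.

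Ephrin-B ligands went in both directions. Efnb3, the member with the highest level per kb in Input, had 2955, 2784 and 2776 scaled reads in Input and 2003, 1921 and 2278 in Positive, a fall to 72.8% (log2 -0.46, SE 0.08, adjusted p 0.00062). Its level went from 892 to 649 scaled reads per kb. Efnb1 had 294, 276 and 356 scaled reads in Input and 431, 486 and 386 in Positive, a 1.41-fold rise (log2 0.50, SE 0.13, adjusted p 0.0086). Efnb2, the arterial ephrin that binds Ephb4, gave -0.11 (adjusted p 0.34).

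Eph receptors had 2 members higher and 4 lower of 13, too few to set against the 24.0% of all genes that rose and the 22.0% that fell. Epha2, an Eph receptor of epithelia and endothelia that binds Efna1, had 14.3, 15.03 and 31.5 scaled reads in Input and 115, 143 and 83.1 in Positive. It rose 5.65-fold (log2 2.50, SE 0.32, adjusted p 4.3e-05). Its Input libraries did not all exceed 20 scaled reads, so Epha2 was tested only because of its Positive level. Such a filter favours a call of higher. Animal 208 had both the highest Input and the lowest Positive level, and Epha2 had the lowest level per kb of all members in Input, 4.33 scaled reads. Epha7, a receptor of neurons and their progenitors, had 1998, 2367 and 2228 scaled reads in Input and 2623, 2668 and 3082 in Positive (log2 0.34, SE 0.09, adjusted p 0.0075). Epha4, which binds ephrins of both classes and restrains dendritic spines, had the largest number of scaled reads of the Eph receptors, 4580 to 5291 in Input and 4567 to 5749 in Positive. Its log2 fold change was 0.03 with a 95% interval from -0.18 to 0.24 (adjusted p 0.81), and -0.05 under scaling by total count. Epha3, Epha5 and Epha6 gave -0.06, -0.04 and 0.13 and were not called.

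The lowered Eph receptors fell by less than 2-fold. Ephb1 had 663, 710 and 707 scaled reads in Input and 510, 440 and 526 in Positive (log2 -0.50, SE 0.10, adjusted p 0.0014). Ephb3 gave -0.35 (SE 0.11, adjusted p 0.023), a call lost in 3 of 14 alternatives at adjusted p 0.055 to 0.093, and Epha10, which lacks kinase activity, had 1067, 873 and 916 scaled reads in Input and 770, 681 and 629 in Positive (log2 -0.46, SE 0.11, adjusted p 0.0034). Neither of these overlapped between fractions. Epha8 had 111, 65.8 and 92.3 scaled reads in Input and 70.0, 53.0 and 49.9 in Positive, and its groups overlapped. It gave -0.64 (SE 0.25, adjusted p 0.049), and its call was lost in 7 of the 13 alternatives in which it was tested, at adjusted p 0.051 to 0.20. Ephb2 gave 0.13 and Ephb6, also without kinase activity, gave -0.17, and neither was called. Ephb4, the venous partner of Efnb2, had 94.2, 99.6 and 89.0 scaled reads in Input and 133, 143 and 71.7 in Positive (log2 0.30, SE 0.24, adjusted p 0.32). Animals 201 and 207 were higher in Positive and animal 208 was lower, and without the Positive library of 208 Ephb4 was called higher at 0.55 (adjusted p 0.019).

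Of 3 Slits, the secreted ligands, 2 fell and none rose, and of 4 Robo receptors 2 rose and none fell. These families are too small to set against the 24.0% of all genes that rose and the 22.0% that fell. Slit2 had 587, 712 and 582 scaled reads in Input and 483, 441 and 422 in Positive (log2 -0.48, SE 0.11, adjusted p 0.0032). Slit1 had 3317, 3655 and 3729 in Input and 2979, 2877 and 3145 in Positive (log2 -0.25, SE 0.08, adjusted p 0.020), and its call was lost in 4 of 14 alternatives, at adjusted p 0.061 to 0.10. In both of these Slits the fractions did not overlap. Slit3 had 746, 866 and 862 in Input and 756, 692 and 711 in Positive, which overlapped (log2 -0.20, SE 0.09, adjusted p 0.098). Robo4, an endothelial Robo that steadies vessel walls, had 51.0, 49.8 and 52.4 scaled reads in Input and 221, 149 and 96.6 in Positive, a 3.04-fold rise (log2 1.61, SE 0.27, adjusted p 0.00039). Input libraries were nearly equal and the Positive libraries spread widely, animal 208 being the lowest. Robo2, a neuronal Slit receptor, had 1343, 1263 and 1207 in Input and 1407, 1558 and 1619 in Positive, a difference of 0.27 (SE 0.08, adjusted p 0.020). The call of Robo2 was lost in 5 of 14 alternatives, at adjusted p 0.055 to 0.098. Robo3, which lies beside Robo4 on chromosome 9, had 300.1, 204 and 202 in Input and 300.1, 231 and 144 in Positive, with overlap, and gave -0.06 (adjusted p 0.84). Robo1 gave -0.04 and was not called.

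Of the netrins and their receptors, 1 gene was called, in families too small to set against the 46.0% of all genes that were called. Unc5b, a netrin receptor of vessels and glia that is in the oligodendrocyte list from cell sorting, had 584, 570 and 497 scaled reads in Input and 307, 241 and 243 in Positive. It fell to 47.8% of Input (log2 -1.06, SE 0.13, adjusted p 2.2e-05) with no overlap. Unc5a, the third most abundant member per kb in Input at 661 scaled reads, gave -0.17 (adjusted p 0.15). It was lower in animals 201 and 207 and higher in 208, and without the Positive library of 208 it was called lower at -0.29 (adjusted p 0.0042). Unc5c gave -0.16 (adjusted p 0.20). Unc5d had 535, 437 and 486 scaled reads in Input and 470, 472 and 528 in Positive, which overlapped, and gave 0.01 (adjusted p 0.94), or -0.07 under scaling by total count. Ntn1, the founding netrin, had 134, 98.7 and 139 scaled reads in Input and 169, 149 and 108 in Positive (log2 0.20, SE 0.20, adjusted p 0.44). Its receptor Dcc, which attracts axons, gave -0.14 (adjusted p 0.58). Ntn4, a netrin of basement membranes, gave -0.16 (adjusted p 0.53). Ntn5 had 186, 230.0 and 276 in Input and 161, 135 and 225 in Positive, lower in each animal but with overlapping groups. It gave -0.41 (SE 0.20, adjusted p 0.11) and was called lower with the animal as a block, at -0.42 (adjusted p 0.032), and at -0.64 (adjusted p 0.010) without the Positive library of animal 208.

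Several of the strongest rises were smallest in animal 208, in which the medians of 6 of 8 marker lists were also the lowest of the 3 animals. The log2 ratio of Positive to Input in animals 201, 207 and 208 was 3.42, 3.17 and 2.61 for Sema3g and 2.93, 3.17 and 1.37 for Epha2. It was 1.83, 2.09 and 1.53 for Plxnb2, and 2.097, 1.56 and 0.87 for Robo4. The median ratio of the 5 endothelial markers (Cldn5, Flt1, Pecam1, Tek and Vwf) was 2.24, 2.27 and 1.21 in the same order. Their summed level was 1202 to 1558 scaled reads in Input and 3533 to 6937 in Positive, and none of the 5 was at 0 in any library. The median ratio of the 8 microglial markers was 4.59, 4.88 and 4.34, and that of the 4 border macrophage markers was 3.89, 4.47 and 3.80. For mural cells it was 0.20, 0.15 and -0.95, for astrocytes -0.13, -0.27 and -0.87, and for oligodendrocyte precursors -1.35, -1.58 and -2.15. It was not the lowest in 208 for oligodendrocytes (-2.91, -2.46 and -2.88) or for neurons (-0.04, 0.06 and 0.26). Of the 13 higher members, 9 had their smallest ratio in animal 208. The share among all higher genes was not counted, so this number says nothing particular of guidance genes. The part of RNA from endothelial or other cells in these rises was not tested. Without the Positive library of animal 208, Sema3g was at 3.33, Epha2 at 2.68, Robo4 at 1.85 and Plxnb2 at 1.99 on the log2 scale, and all 4 remained called.

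**Figure D4:**
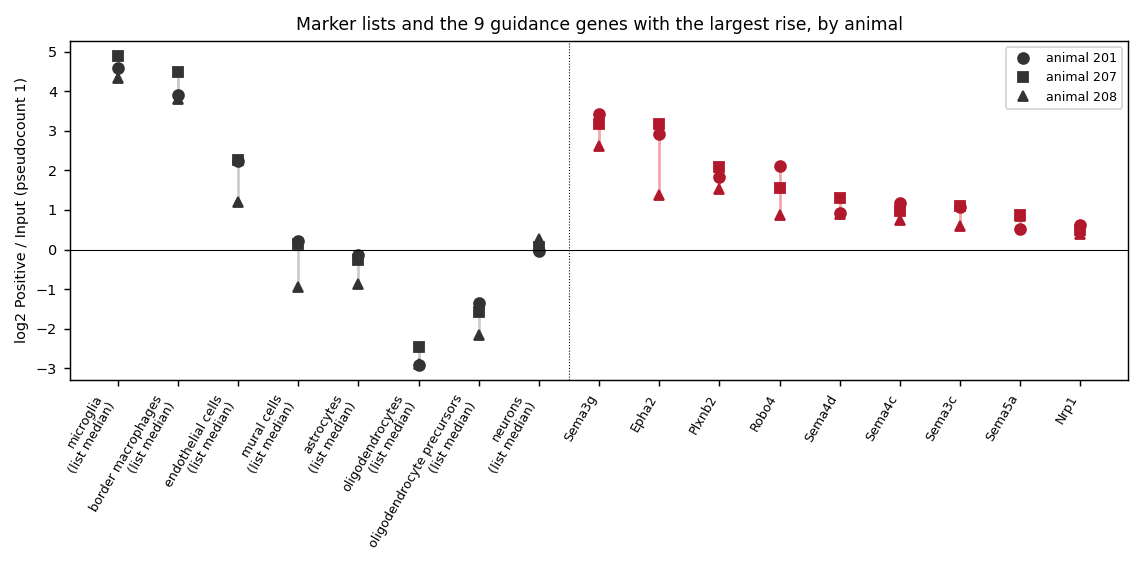
Log2 ratio of Positive to Input in each of the 3 animals, with a pseudocount of 1, for the medians of 8 marker lists on the left and for the 9 members with the largest rise on the right. Triangles mark animal 208, which is the lowest of the 3 for 6 of the 8 lists, the microglial (4.34) and endothelial (1.21) ones among them. It is also the lowest for every one of the 9 members except Sema5a.

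Of the 4 lists from cell sorting, none of the members was in the microglial or the astrocyte list. In the oligodendrocyte list, Efnb3, Ephb1 and Unc5b fell, Sema4d and Sema5a rose, and Plxnb3 was not called. Of the 186 genes of that list tested, 137 fell and 10 rose, with a median log2 fold change of -0.78 and summed levels of 319899 to 341590 scaled reads in Input and 208287 to 216297 in Positive. Robo2 was the 1 member in the neuronal list, of which 22 of 99 genes rose and 18 fell. The part of oligodendrocyte or neuronal RNA in the results of these genes was not tested.

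Other genes of guidance signalling were read from 2 further lists. Among 24 tested receptors and ligands outside these families, such as netrin-G ligands, Flrt proteins and adhesion molecules that serve as co-receptors, 4 rose and 7 fell, with a median of -0.16. Over all genes tested, 24.0% rose and 22.0% fell, and the list is too small to be told apart from these shares. Itgb1, the integrin beta 1 chain that binds Sema7a, rose by 1.5 on the log2 scale (SE 0.13, adjusted p 9.7e-07). Kdr, the receptor of vascular endothelial growth factor that joins with neuropilins, rose by 1.38. Itga1, an integrin chain that also serves Sema7a, rose by 0.84 (SE 0.25, adjusted p 0.016). It had 126, 106 and 112 scaled reads in Input and 278, 222 and 117 in Positive. Its fractions overlapped, and animal 208 showed little difference. Cd72, a receptor of Sema4d on B cells and macrophages, had 3.06 to 3.76 scaled reads in Input and 49.4 to 71.6 in Positive. It was called higher (adjusted p 1.6e-06), with too few Input reads for a precise fold. Like Epha2, Cd72 was tested only because of its Positive level. Cntn2, a contactin of axons and oligodendrocytes, fell by 1.02 (SE 0.11, adjusted p 6.6e-06), and Met, Ntng2, Flrt1 and Neo1 fell by 0.66, 0.62, 0.40 and 0.37. Lrrc4c and Flrt2 fell by 0.32 and 0.29.

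Inside the cell, guidance receptors act on small GTPases and the actin skeleton. Of 49 tested effectors, 23 rose and 3 fell, where 24.0% of all genes rose and 22.0% fell. In either direction 53.1% of effectors were called, against 46.0% of all genes. The median log2 fold change of the effectors was 0.23, against -0.01 for all genes. Higher effectors numbered 19 under total count scaling and 18 to 22 with 1 library left out. The largest rise was that of Fes, a tyrosine kinase of myeloid cells that is used by semaphorin receptors, with 57.1, 34.8 and 51.4 scaled reads in Input and 777, 931 and 601 in Positive (log2 4.02, SE 0.20, adjusted p 5.7e-09). Vasp, an actin-elongating protein, rose by 2.42 and Vav2, an exchange factor used by Eph receptors, by 1.53. Srgap2, a GTPase-activating protein that binds Robo, rose by 1.47 and Rap1b by 1.25, while Cdc42 and Rac1 rose by 0.66 and 0.40. Farp1, Enah and Mical3 fell by 0.47, 0.35 and 0.22. These effectors also serve many other pathways. The part of microglial RNA, whose 8 markers all rose, in the counts of effectors was not tested.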

How the data were processed

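RNA was measured in 6 hippocampal libraries, 1 Input and 1 Positive from each of 3 mice, grouped by the fraction label. As stated by the study, directional poly(A) libraries were sequenced as read pairs, trimmed, aligned to mm10 and counted per gene in Strand NGS. The processing notes of the submitters name DESeq. The deposited raw columns hold estimated counts, which need not be whole numbers, for genes that the authors kept if 1 fraction or both had 20 or more reads in each of its libraries. The deposited normalized columns, which the authors gave on a log2 scale relative to the Input median, were used for 1 alternative. No per-sample column was left unmapped (0 columns). Whether both mates of a pair were counted was not settled, so the spread expected from counting alone is uncertain, and reads divided by 2 were tried. Depth was 14879734 to 17757918 reads.

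Estimated counts were rounded and tested with edgeR 4.0.16 (glmQLFit, glmQLFTest) in R 4.3.3, with RLE scaling and without pairing, as in the methods of the study. A gene was tested if all 3 libraries of a fraction had more than 20 scaled reads, which held for 15343 genes and not for 45. The Benjamini-Hochberg adjustment ran over all genes tested. Tests were two-sided. The standard error was derived from the F statistic. Ratios per animal used a pseudocount of 1. Levels per kb used the union of exons of the GENCODE annotation, found for all 65 members, 60 of them with the same coordinates as in the table. One antisense row with a matching name, Plxna4os1, was left out by its gene type. Promoters were matched by symbol.

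Alternatives were TMM scaling, total count scaling, no filter, a filter at 100 scaled reads, DESeq2 1.42.0, the animal as a replicate block, reads divided by 2, each library left out in turn and, chosen after seeing the data, limma 3.58.1 on the deposited log2 values. Input and Positive libraries with the same number come from the same animal per the labels. The correlation of their deviations from the group means was 0.19, 0.06 and 0.12 for animals 201, 207 and 208. Between libraries of different animals it was -0.14 to 0.03, so each matched value was above every unmatched one. The script was tested on simulated data. Named members were the highest and the lowest of each family, the 12 highest and the 12 lowest called, and ligand and receptor pairs, and of the other genes of guidance signalling the 5 highest and 5 lowest called; further genes are given with their values. Members, lists, the motif letters and tests were chosen with earlier results of these data known. Marker lists were written by hand, or taken from the cell-sorting lists of the study's supplement.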

Additional observations from a re-analysis of the deposited data

How the results depend on the processing

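The filter at 100 scaled reads left 56 of the 65 members to test. Of the members run in all 14 alternatives, 28 kept their call and direction in each, among them 9 higher and 8 lower ones. A further 6, among them Epha2, Robo4 and Sema3d, kept theirs in the 13 alternatives that tested them. The calls lost somewhere were those of Robo2, Epha7, Epha8, Sema4a, Sema6a, Ephb3, Slit1 and Plxnb1. The replicate block, which pairs libraries by animal, gave 13 members higher and 18 lower, and it changed no other call of a member than by adding Ntn5, Plxna1 and Sema6c. The limma fit of the deposited values, chosen after seeing the data, gave 11 higher and 11 lower. Leaving out 1 library gave 12 to 14 higher and 10 to 16 lower, with the lowest count of lower members, 10, without Input 208 or Positive 207.

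Total count scaling moved the median log2 fold change of all members to -0.19, of ligands to -0.23 and of receptors to -0.12. It raised the number of lower genes to 11 among the other guidance receptors and ligands, whose median became -0.24, and to 5 among effectors. Leaving out 1 library gave medians of -0.12 to -0.036 for all members, -0.23 to -0.12 for ligands and -0.073 to 0.017 for receptors. Lower receptors then numbered 3 to 7, with 3 without Input 201. Lower genes among the other guidance receptors and ligands numbered 3 to 9, with 3 without Input 208 and 4 without Positive 201, and their median was -0.26 to -0.15. The direction of uncalled members near 0 turned. Under total count scaling Plxna2 was at -0.035, Plxna4 at -0.038, Epha4 at -0.046 and Unc5d at -0.065, and Unc5d was at -0.003 with limma. With 1 library left out the ranges were -0.031 to 0.25 for Sema4g, -0.035 to 0.096 for Plxna2, -0.027 to 0.096 for Plxna4, -0.061 to 0.11 for Epha4, -0.060 to 0.087 for Unc5d, -0.095 to 0.056 for Sema4f, -0.11 to 0.053 for Sema6b, -0.13 to 0.016 for Robo1, -0.13 to 0.018 for Epha5, -0.21 to 0.086 for Plxna3, -0.15 to 0.084 for Epha3, -0.32 to 0.17 for Robo3, -0.37 to 0.12 for Sema3f, -0.32 to 0.093 for Plxnd1 and -0.46 to 0.057 for Plxnb3. The cause of these changes was not tested. With 3 animals and few reads, small changes of the scarce members (Epha2, Sema3a, Sema3d, Epha8) could be missed.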
